A study of Homo sapiens with 4 samples.

Results

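To see which antigen presentation genes carried H3K27ac in triple-negative breast cancer lines once TWEAK was washed off, peaks were read around 9 genes out of 19970 protein-coding genes. The 9 genes were chosen by their role. The class I genes were HLA-B, HLA-C, HLA-E, B2M, TAP1, PSMB8 and PSMB9 (7 genes), and the class II genes were HLA-DRA and CIITA (2 genes). A gene was called marked in a list if a peak lay within 1 kb of the start site of its canonical GENCODE transcript, and its neighbourhood was the gene body with 20 kb on either side. HLA-B, HLA-C, HLA-E, TAP1, PSMB8, PSMB9 and HLA-DRA lie on chromosome 6, B2M lies on chromosome 15 and CIITA on chromosome 16 (hg38).

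The lists came from ChIP-seq of H3K27ac, an acetylation of histone H3 found at active promoters and enhancers, in 4 libraries. Both lines used, MDA-MB-231 and Hs578T, are established breast cancer lines of human origin without hormone receptors or HER2 amplification, and each gave 2 replicates. Every library was from cells starved for 8 h in Opti-MEM, exposed to TWEAK, a cytokine, at 10 ng/ml over 48 h with a renewal on the way, and then kept without it, for 72 h per the series record and for longer per the text of the study. TWEAK binds the receptor Fn14. All 4 libraries share the treatment, and libraries of untreated cells or of cells during treatment were not used here, so its effect was not measured.

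MHC class I molecules present peptides from inside the cell to CD8 T cells and are made by nearly all nucleated cells. A heavy chain, such as HLA-B or HLA-C, pairs with beta-2-microglobulin, encoded by B2M, and is loaded with peptides that the immunoproteasome has cut and the TAP transporter has carried into the endoplasmic reticulum. MHC class II molecules present peptides taken up from outside to CD4 T cells, mainly on B cells, macrophages and dendritic cells, and their genes depend on the transactivator CIITA. Interferon-gamma is a known inducer of both sets of genes.

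Counted over the autosomes and X, there were 209 peaks in the list of MDA-MB-231 replicate 1, against 43353 in MDA-MB-231 replicate 2, 46330 in Hs578T replicate 1 and 44920 in Hs578T replicate 2. The list of MDA-MB-231 replicate 1 marked 12 of 19970 coding genes (0.0601%), had a peak within 20 kb of 0.996% of them, and had none in the neighbourhood of any of the 9 genes. Values below are therefore from the other 3 lists, always in the order MDA-MB-231 replicate 2, Hs578T replicate 1 and Hs578T replicate 2. Mesenchymal markers (VIM, CD44, AXL) were marked in those 3 lists, 3 of 3 genes in each, while luminal markers (ESR1, GATA3, FOXA1) were marked in none and 0 of 7 leukocyte and antigen-presenting cell markers, PTPRC and CD14 among them, had a start-site peak. A missing start-site peak did not mean an empty neighbourhood, since peaks covered 22876, 24043 and 24963 bp within 20 kb of PTPRC, against a median of 3162, 3506 and 3158 bp over coding genes, and ESR1 and GATA3 had 4 to 8 peaks in theirs.

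Reference promoters are shown for 5 class I genes. These lie inside the 1 kb windows searched for peaks, and their sequences show how far the HLA genes share a promoter. They run from 250 bases before to 50 after the RefSeq start site (GRCh38.p14), on the strand of the gene, and are reference sequence and not the alleles of the lines. Capitals mark matches to an interferon-stimulated response element core (ISRE core, GAANNGAAA) and to the NF-κB motif, and in PSMB8 also to the interferon-gamma activated GAS element (TTCNNNGAA), on either strand. HLA-B lies at chr6:31357130-31357429 (minus strand), HLA-C at chr6:31272043-31272342 (minus), B2M at chr15:44711267-44711566 (plus), TAP1 at chr6:32853655-32853954 (minus) and PSMB8 at chr6:32843998-32844297 (minus).
HLA-B: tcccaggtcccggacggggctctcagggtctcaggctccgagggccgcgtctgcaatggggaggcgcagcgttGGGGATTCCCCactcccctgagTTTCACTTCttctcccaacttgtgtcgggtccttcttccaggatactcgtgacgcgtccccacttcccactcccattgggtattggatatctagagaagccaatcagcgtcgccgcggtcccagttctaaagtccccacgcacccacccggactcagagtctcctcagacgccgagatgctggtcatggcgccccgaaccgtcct
HLA-C: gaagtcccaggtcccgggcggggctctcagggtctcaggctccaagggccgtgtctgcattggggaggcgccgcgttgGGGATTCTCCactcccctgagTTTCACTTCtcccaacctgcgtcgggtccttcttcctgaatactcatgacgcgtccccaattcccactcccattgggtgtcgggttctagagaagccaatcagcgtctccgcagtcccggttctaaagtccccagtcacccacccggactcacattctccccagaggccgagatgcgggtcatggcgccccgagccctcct
B2M: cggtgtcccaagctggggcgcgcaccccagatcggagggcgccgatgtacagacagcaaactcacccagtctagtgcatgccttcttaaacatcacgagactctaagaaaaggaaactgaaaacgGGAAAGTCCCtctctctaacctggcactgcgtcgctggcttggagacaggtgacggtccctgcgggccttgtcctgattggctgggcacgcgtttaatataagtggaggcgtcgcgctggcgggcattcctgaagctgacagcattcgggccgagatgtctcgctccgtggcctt
TAP1: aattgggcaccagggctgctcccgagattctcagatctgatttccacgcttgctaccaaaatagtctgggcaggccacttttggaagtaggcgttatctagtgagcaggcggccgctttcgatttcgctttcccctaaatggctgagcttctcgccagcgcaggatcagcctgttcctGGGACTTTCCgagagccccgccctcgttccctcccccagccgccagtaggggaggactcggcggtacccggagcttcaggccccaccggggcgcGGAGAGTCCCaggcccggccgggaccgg
PSMB8: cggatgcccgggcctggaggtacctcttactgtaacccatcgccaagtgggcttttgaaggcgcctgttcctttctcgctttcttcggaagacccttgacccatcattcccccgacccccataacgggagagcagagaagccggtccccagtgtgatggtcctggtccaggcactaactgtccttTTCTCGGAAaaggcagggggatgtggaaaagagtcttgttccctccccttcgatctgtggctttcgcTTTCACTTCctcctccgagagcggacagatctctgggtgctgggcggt

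The HLA-B and HLA-C promoters were identical at 269 of 304 aligned positions (88.5%), and each holds an NF-κB motif a short way before an ISRE core. The other 14 pairs among the 6 class I promoters in the RefSeq table, PSMB9 included, were identical at 46.9% to 52.7% of aligned positions. Of these 6 promoters, the ISRE core as spelled above was found in 3 (HLA-B, HLA-C, PSMB8), against 7.66% of 35116 promoters of the same length. The B2M promoter holds gaaactgaaa, and the TAP1 promoter holds tttcgatttc, a similar run on the other strand. In both, the gap between the repeats is wider than in this spelling, so they were not counted. Spellings with other gaps were not searched, so a promoter without a match may still hold an ISRE. The GAS element was found in 1 (PSMB8), against 7.66% of all promoters. The NF-κB motif was found in 4 (HLA-B, HLA-C, B2M, TAP1), against 11.3%. The short Y box (ATTGG), part of the SXY module that CIITA-type activators use, was found in 5, against 34.6%, and the RFX half-site (AGCAAC) in 0, against 12.8%. The Y box matches of TAP1 and PSMB9, at -249 and -243, are the same bases, inside the 13 bases that their promoters share. A match is a run of letters and not a shown binding site. The HLA-B peaks reached only 90, 88 and 7 bp upstream of the start. The ISRE core and NF-κB matches of HLA-B begin at -155 and -177, outside those peaks. Those of HLA-C begin at -151 and -172. They lay under the MDA-MB-231 replicate 2 peak, which reached 246 bp upstream, but outside both Hs578T peaks, which stopped short of the start. HLA-E, HLA-DRA and CIITA had no entry in the table.

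All 7 class I genes were marked at the start site in MDA-MB-231 replicate 2 and in both Hs578T lists. The share of coding genes marked in those lists was 58.1%, 58.2% and 56.4%, and 57.7% of coding genes were marked in at least 2 of the 4 lists. The shared state was common, since 11103 of 19970 coding genes (55.6%) were likewise marked in those 3 lists and unmarked in MDA-MB-231 replicate 1. The class I genes stood on 6 separate peaks, because 1 peak covered the starts of both TAP1 and PSMB9. Fold enrichment is a ratio of signal over local background. The lists have 9 columns and no summit position, so the ratio may be a mean over the whole peak rather than its height. Peak widths differ between the genes, and how far this bears on their order was not tested. Since fold enrichment depends on the library, it was compared between lists only as a percentile within the list. The median percentile of the class I start-site peaks was 69.4 in MDA-MB-231 replicate 2, 78.0 in Hs578T replicate 1 and 69.1 in Hs578T replicate 2. The start-site peaks of all coding genes had medians of 71.3, 69.9 and 67.5 in the same order, so the class I peaks were near the usual strength for a promoter.

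HLA-E encodes a class I molecule that displays signal peptides to natural killer cells, and its start-site peak was the strongest of the members in each of the 3 lists. Its fold enrichment was 17.2 in MDA-MB-231 replicate 2, 13.8 in Hs578T replicate 1 and 11.8 in Hs578T replicate 2, at percentiles 92.4, 88.6 and 88.7. The peak was 1545, 2195 and 1505 bp wide. B2M, the light chain of every class I molecule, came next, with folds of 11.9, 11.5 and 10.5 at percentiles 82.0, 83.5 and 85.0. Its start-site peak was also the widest of the members, at 3299, 6155 and 3454 bp, and the start of PATL2 lies 194 bp away from that of B2M, so the peak covers both starts.

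HLA-C and HLA-B encode classical heavy chains and are neighbours on chromosome 6. HLA-C had folds of 9.91, 9.96 and 6.98 in the same order of lists, at percentiles 75.3, 78.7 and 69.1 and with widths of 1274, 962 and 1103 bp. In Hs578T the HLA-C peak stopped 6 bp (replicate 1) and 22 bp (replicate 2) inside the gene and did not reach the start site itself. HLA-B had the weakest and narrowest start-site peak of the class I members, with folds of 7.04, 6.18 and 4.71 at percentiles 61.0, 59.3 and 48.3 and widths of 746, 741 and 651 bp. Within 1 kb on either side of the start sites of HLA-B, HLA-C and HLA-E, 84.9%, 84.3% and 80.9% of the 32-base words occur once in the reference, against 100% for B2M, TAP1, PSMB8 and PSMB9. The part of this in the HLA-B values was not tested.

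TAP1, a subunit of the peptide transporter, and PSMB9, a catalytic subunit of the immunoproteasome, start 488 bp apart in opposite directions. One peak covered both starts, with folds of 8.57, 9.54 and 6.93 at percentiles 69.4, 77.3 and 68.9 and widths of 2517, 2845 and 2668 bp. PSMB8, the neighbouring immunoproteasome subunit, had folds of 8.38, 9.74 and 7.10 at percentiles 68.5, 78.0 and 69.9 and widths of 1435, 1602 and 1658 bp. The percentile ranges of TAP1 with PSMB9, of PSMB8 and of HLA-C overlapped.

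**Figure D1:**
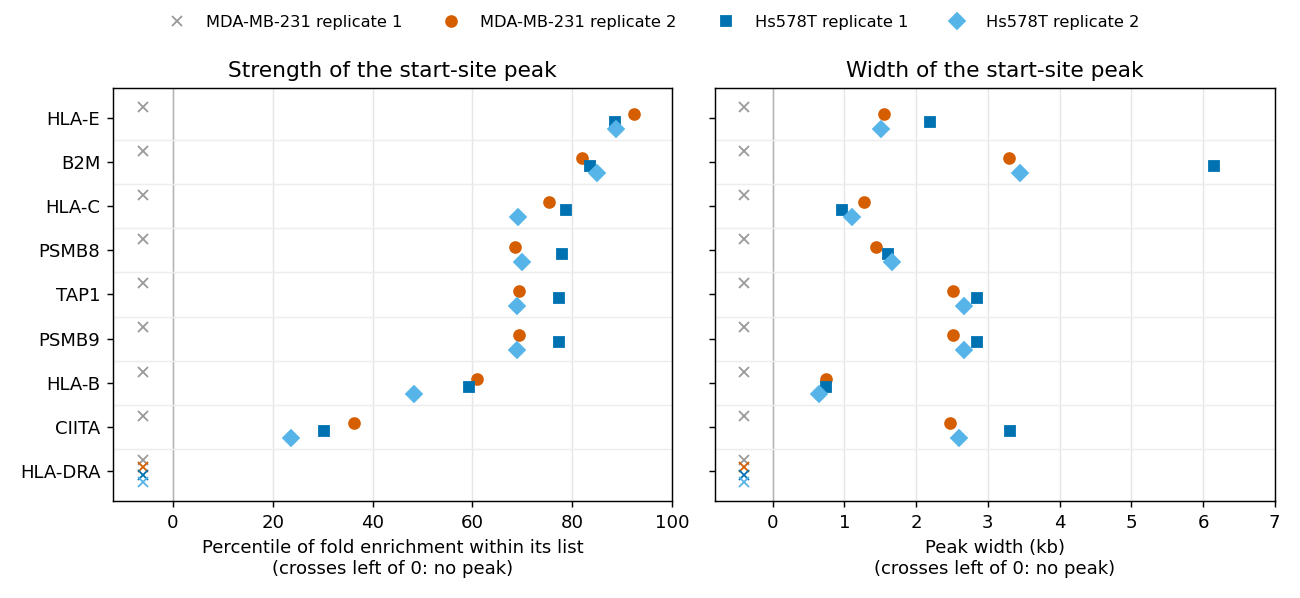
H3K27ac start-site peaks of the 9 genes in the 4 peak lists: the left panel gives the percentile of the fold enrichment among all peaks of the same list and the right panel the peak width in kb, with a cross left of 0 where the list had no peak. In the left panel HLA-E and B2M sit highest and CIITA lowest among the marked genes. HLA-DRA has no peak in any list.

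CIITA, the class II transactivator, was marked, but weakly. Its start-site peak had folds of 4.41, 3.64 and 3.36 at percentiles 36.2, 30.3 and 23.7, below those of all 7 class I genes in the same list. It was not narrow, with widths of 2471, 3310 and 2591 bp. From HLA-E down, the order of percentiles was HLA-E, B2M, a group of HLA-C, PSMB8, TAP1 and PSMB9, then HLA-B, then CIITA. Ranges over the 3 lists did not overlap between these steps and overlapped within the group. With 2 libraries per line no test between lines was made, since an exact two-sided permutation test could not give a p-value below 0.33.

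HLA-DRA, the alpha chain of HLA-DR, had no peak within 20 kb of its gene body in any list. The nearest peak lay 68.3 kb away in MDA-MB-231 replicate 2 and 68.0 kb away in each Hs578T list, and the stretch without a peak around the gene was 238 kb in MDA-MB-231 replicate 2 and 466 kb in each Hs578T list. By comparison, 80.5%, 80.9% and 80.0% of coding genes had a peak within 20 kb in those 3 lists. Near the HLA-DRA start 93.2% of 32-base words occur once in the reference.

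The rest of each pathway was described by counts, and the lists were not tested against each other. Of 15 other class I pathway genes, 13 were marked in each of the 3 lists (86.7%, against 58.1%, 58.2% and 56.4% of coding genes), and HLA-F and HLA-G were not. The strongest peaks of that list were those of ERAP1, which trims peptides in the endoplasmic reticulum (percentiles 98.6, 99.1 and 96.4), and TAPBP, which links TAP to class I molecules (95.4, 96.0 and 94.0). NLRC5, the transactivator of class I genes, was among the weakest, with folds of 5.14, 4.88 and 4.25 at percentiles 45.2, 47.4 and 41.3.

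Of 16 other class II pathway genes, 7 were marked in each of the 3 lists (43.8%, against 58.1%, 58.2% and 56.4% of coding genes). Of the 10 that encode class II HLA chains or their partners HLA-DM and HLA-DO, only HLA-DMA was marked, with folds of 3.72, 3.74 and 4.33 at percentiles 25.2, 32.1 and 42.6. HLA-DRB1, HLA-DRB5, HLA-DQA1, HLA-DQB1, HLA-DPA1, HLA-DPB1, HLA-DMB, HLA-DOA and HLA-DOB had no start-site peak in any list. How unique the reference sequence is around these starts, and whether the lines carry it, was not examined, so a peak there may have been missed. The other 6 marked genes act outside the HLA chains. RFXANK, RFX5 and RFXAP, the subunits of the RFX complex that binds class II promoters, were marked, and RFXANK was the strongest of the list, with percentiles of 80.8, 84.1 and 89.5. CD74, the invariant chain that guides class II molecules, had percentiles of 69.7, 71.8 and 75.9. CTSS, a protease that cleaves the invariant chain, and IFI30, a lysosomal thiol reductase, were at the low end, with folds for IFI30 of 2.98, 2.40 and 2.71.

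**Figure D2:**
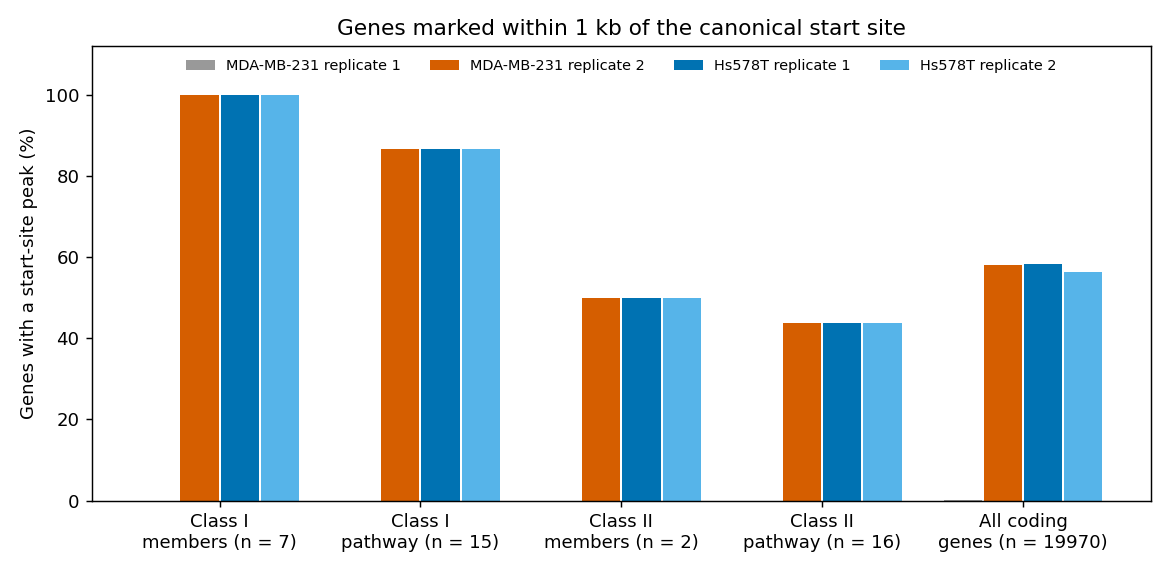
Percentage of genes with an H3K27ac peak within 1 kb of the canonical start site, by gene set and peak list, with the percentage over all coding genes at the right. All 7 class I members and 13 of 15 class I pathway genes were marked in 3 lists, against 1 of 2 class II members and 7 of 16 class II pathway genes, and MDA-MB-231 replicate 1 is at or close to 0 throughout.

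The class II genes can be followed along the 650 kb from HLA-DRA to HLA-DPB1. This stretch held 8 peaks in MDA-MB-231 replicate 2, 12 in Hs578T replicate 1 and 13 in Hs578T replicate 2, and 0 in MDA-MB-231 replicate 1. Peaks covered 2.74%, 3.34% and 3.23% of it in the 3 lists. From HLA-DRA to TAP2 the Hs578T lists had none, and MDA-MB-231 replicate 2 had 1, a 986 bp peak at chr6:32609308-32610293 with a fold of 3.63, between HLA-DRB1 and HLA-DQA1. Then came the peaks at the starts of TAP2, PSMB8 and TAP1 with PSMB9, which lie inside the class II stretch. Beyond them, 455 kb from the HLA-DRA start, was a peak with no coding start within 1 kb, picked after its values were seen. Its folds were 10.7, 12.4 and 9.92, above those of the peaks at these starts in each of the 3 lists. The strongest peak of the stretch was at the start of BRD2, a bromodomain gene that is no antigen presentation gene and was picked after its values were seen, with folds of 57.4, 59.3 and 39.6 and widths of 6790, 6988 and 7909 bp. Within this one stretch the class I processing genes and BRD2 were thus marked at their starts, and the class II HLA genes, HLA-DMA aside, were not.

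**Figure D3:**
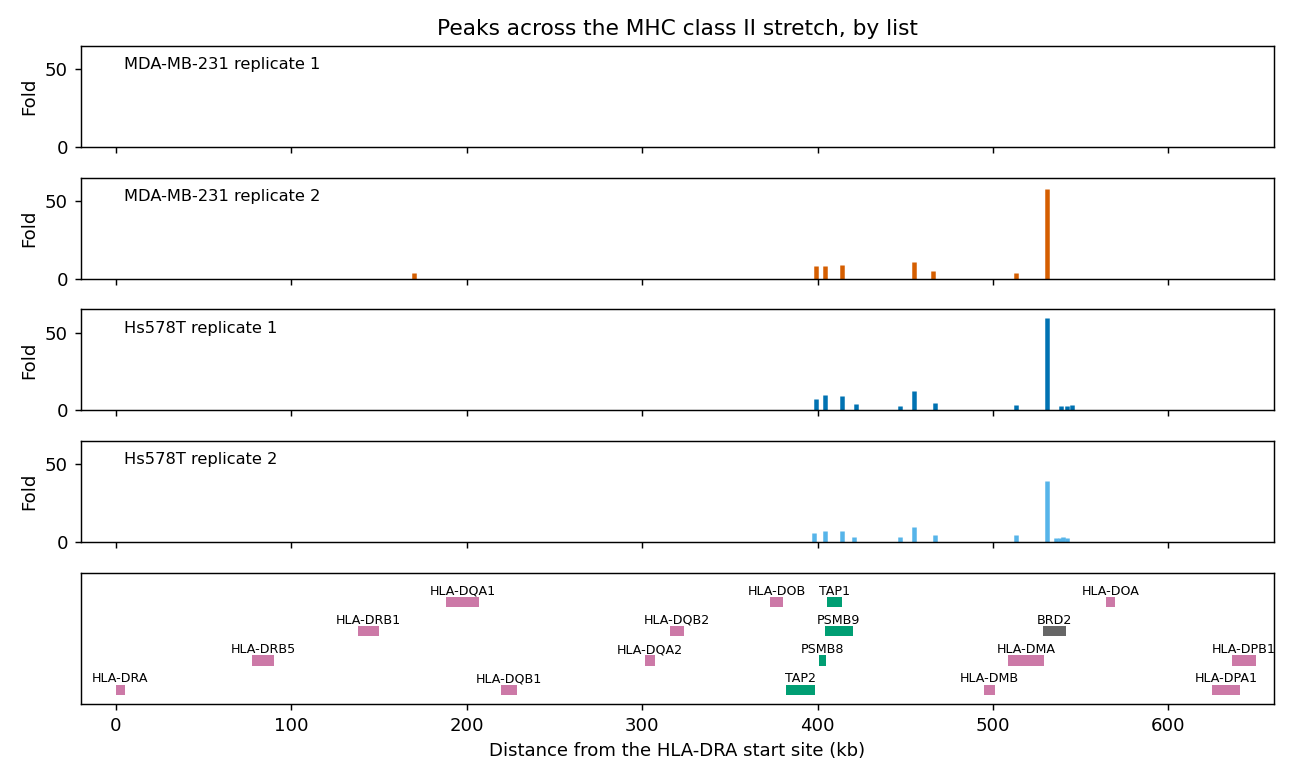
H3K27ac peaks along the stretch from HLA-DRA to HLA-DPB1 in each list, with height as fold enrichment (linear) and position in kb from the HLA-DRA start site; line thickness does not show width. Class II HLA genes are drawn in pink, TAP1, TAP2, PSMB8 and PSMB9 in green and BRD2 in grey, and the tallest line is at BRD2 in 3 lists.

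Taking the neighbourhoods as a whole, the peaks of the 4 lists formed 19 merged regions. Of these, 17 were called in 3 lists and 2 in 2 lists, 7 were at the start site of a member and 12 were not. By position, 10 lay at a coding start site, 7 were intergenic and 2 were in introns. Peaks covered 23112, 27453 and 25519 bp of the 247893 bp around class I genes in MDA-MB-231 replicate 2, Hs578T replicate 1 and Hs578T replicate 2. They covered 7570, 9252 and 7768 bp of the 161969 bp around class II genes, all of it near CIITA. In Hs578T the means were 26486 ± 1368 bp and 8510 ± 1049 bp (SD, n = 2). Bases covered in both of a pair of lists made up 0.755 (MDA-MB-231 replicate 2 and Hs578T replicate 1), 0.794 (MDA-MB-231 replicate 2 and Hs578T replicate 2) and 0.745 (the Hs578T pair) of the bases covered in either. The list of MDA-MB-231 replicate 1 shared 0 bases with each of the others here, so the spread within MDA-MB-231 could not be set beside the difference between lines.

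The strongest peak near B2M was not at its start. It lay downstream of the gene at chr15:44725572-44730900, intergenic, with its middle 16718 bp from the B2M start and 8293 bp from the start of TRIM69. Its folds were 20.8, 22.5 and 17.7 at percentiles 96.0, 97.4 and 96.7, above the 11.9, 11.5 and 10.5 of the B2M start-site peak in each of the 3 lists. It was 4659, 4405 and 5329 bp wide. HLA-E also had further intergenic regions downstream, and the one with its middle 11652 bp from the start had folds of 9.40, 9.47 and 8.30. No value here links either region to a gene.

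The strongest peak near CIITA was likewise away from its canonical start. A region at chr16:10870283-10872910, with its middle 5606 bp upstream of the canonical start and inside an intron of a longer CIITA transcript, had folds of 29.0, 31.8 and 26.7 at percentiles 99.1, 99.5 and 99.5. None of the 16 annotated CIITA transcript starts lay within 1 kb of it, and the first of them was 4061 bp away. The middle of the region also lies within another annotated gene, ENSG00000262151, whose start sites were not searched. The central 300 bases held 2 matches to the NF-κB motif, while a match was found in 6.58%, 6.20% and 6.15% of the central 300 bases of distal peaks in the 3 lists. They also held 1 match each to the GAS element (in 10.2%, 10.2% and 10.3% of distal peak centres) and the Y box (in 32.8%, 33.2% and 33.0%). Matches to the ISRE core as spelled above and to the RFX half-site numbered 0. ISRE spellings with other gaps were not searched here either. The central 300 bases of the region downstream of B2M held 0 matches to each of these 5 motifs. The whole 4405 bp called there in all 3 lists did hold matches: 3 to the NF-κB motif, 4 to the GAS element and 7 to the Y box. It also held 1 to the ISRE core and 4 to the RFX half-site. No background was counted for a stretch of that length. Regions at the starts of DEXI and CLEC16A, the genes beyond CIITA, were weaker, with folds of at most 5.61.

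**Figure D4:**
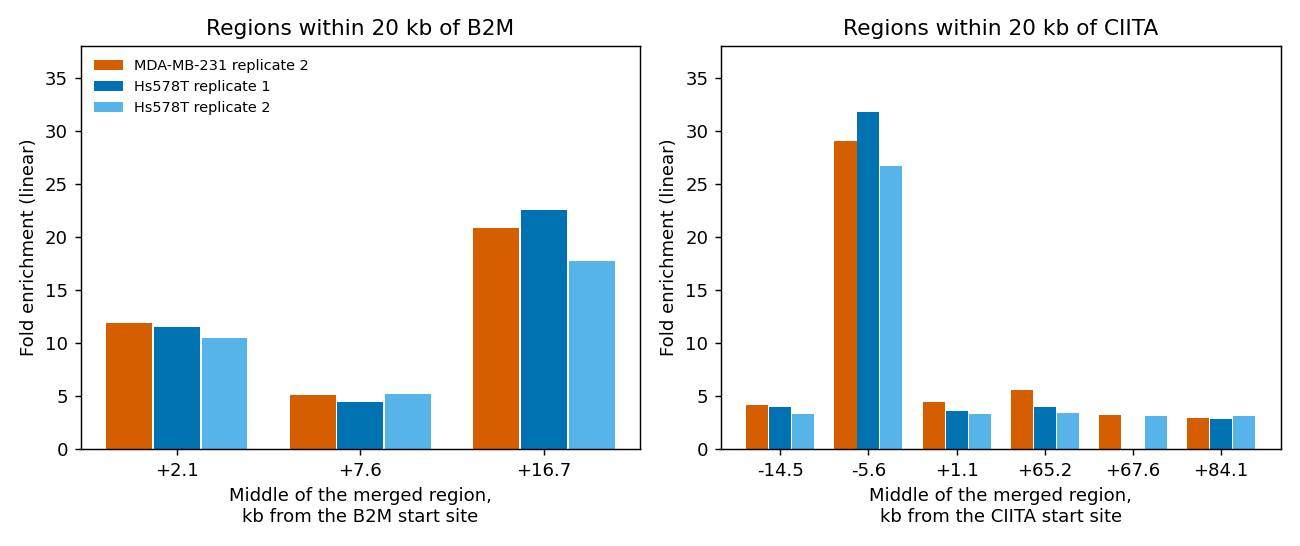
Fold enrichment (linear, bars from 0) of every merged H3K27ac region within 20 kb of B2M and CIITA, in 3 lists, placed by the distance of the region's middle from the start site in kb; a missing bar is a list with no peak there. The tallest bars are for the region 16718 bp downstream of the B2M start and for the region 5606 bp upstream of the CIITA start, not for the start sites.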

How the data were processed

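H3K27ac ChIP-seq was measured in 4 libraries, 2 per line. Per the study, the authors trimmed reads with Trimmomatic, mapped them to hg38 with Bowtie2, called peaks per library with MACS2 against input, and removed blacklisted regions with bedtools; versions and MACS2 settings were not given in the sources used here. The deposited 9-column lists hold fold enrichment (a ratio over local background), a score, and −log10 p- and q-values, and the largest q-value in a list was 0.0827 to 0.0994. Read numbers were not used, so depth is unknown. Start sites came from GENCODE release 44 (assembly 38), canonical transcripts. Computed here with Python 3.11.15, pandas 2.3.3, numpy 2.4.6 and Biopython 1.88: start-site overlap of at least 1 bp within 1 kb, covered bases within 20 kb of the gene body, and percentiles of fold enrichment among all peaks of a list. The interval code was checked on simulated data. The genes and lists were chosen with earlier results of these data known. Named pathway genes were the marked genes with the highest and lowest mean percentile and every class I gene without and class II gene with a peak; TAPBP and BRD2 were named after their values were seen. Some genes counted in the lists are not reported here by name. Replicates were numbered by their titles, and their separateness as cultures is as labelled, so the spread may be technical. Alternatives were the strongest 50% of each list, other windows and flanks, and leaving out each replicate.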

Additional observations from a re-analysis of the deposited data

How the results depend on the processing

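The 9 results were recomputed under the alternatives, which gave 70 values, and 10 of them moved beyond a set tolerance and 60 did not. Reversals of direction were not scored. The tolerance was a ratio of 1.5 for counts and the SD between replicates for other values. In MDA-MB-231 that SD was larger than the mean cover (11556 ± 16343 bp for class I and 3785 ± 5353 bp for class II genes, n = 2), so staying within it says nothing about stability there. Keeping only the strongest 50% of each list by score left 7 of 7 class I members marked, 11 of 15 class I pathway genes (PSME1 and NLRC5 were lost), 0 of 2 class II members (CIITA was lost) and 4 of 16 class II pathway genes (HLA-DMA, CTSS and IFI30 were lost). In Hs578T it also lowered the covered bases to 23206 bp around class I and 2490 bp around class II genes, and the median class I percentile, 73.6 ± 6.27 (SD, n = 2) in the report's setting, to 47.7, a fall that ranking within the stronger part of a list gives by construction. That percentile was 58.0 among start-site peaks alone and 66.5 when ranked by width. With 10 kb from the gene body the class I cover in Hs578T was 22945 bp, and with 50 kb it was 48816 bp for class I and 13000 bp for class II genes; fewer or more bases searched account for this by construction. Leaving out 1 replicate at a time, cover in MDA-MB-231 ran from 0 to 23112 bp for class I and from 0 to 7570 bp for class II genes, 0 being replicate 1 alone. In Hs578T it ran from 25519 to 27453 bp and from 7768 to 9252 bp, with percentiles from 69.1 to 78.0. No paired analysis was possible because these counts, covered lengths and percentiles come from no test. The lists carry no read depth, so a missing peak may be an undetected one.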
